A study of Mus musculus with 4 samples.

Results

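RNA polymerase II (Pol II) occupancy over 9 genes of the sarcomere, the repeating contractile unit of striated muscle, was described in heart, kidney, liver and lung. The genes were chosen by name from the parts of the sarcomere they build, with earlier results of these data known. They comprise the titin gene Ttn, the M-band genes Myom1 and Myom2, and the Z-disc genes Ldb3, Actn2, Nebl and Tcap. The intermediate filament gene Des and the kinase gene Speg complete the list. The genes are 9 of 21887 protein-coding genes, and their spans were taken in mm10. Pol II was precipitated with the antibody 4H8 to the C-terminal domain of its largest subunit from organs of 2 C57BL/6 mice, and the labels name no genetic change or treatment and no age for any group. The organs were flash frozen and crosslinked, and the chromatin was sheared by ultrasound in a 96-well plate and made into libraries by Tn5 tagmentation. The measured files are 1 list of called regions per organ, although the series text speaks of 8 libraries, which makes n = 1 for each organ. Replicate error cannot be given, and differences between organs were therefore not tested.

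Titin spans from the Z-disc, the border of the sarcomere, to the M-band at its middle, and acts as a molecular spring and ruler. At the Z-disc, alpha-actinin 2 crosslinks actin filaments, telethonin caps the end of titin, and desmin filaments tie neighbouring Z-discs to each other and to the cell membrane. At the M-band, myomesins crosslink the myosin filaments to titin. Pol II that is elongating through a gene is spread over its body, so a transcribed gene can appear in such data as long regions across the span. The covered percent below is the share of the annotated gene span, introns included, inside called regions. The tags per kb of span are the authors' tags, scaled to 10000000 per list, of the overlapping regions, shared out by the part of each region that lies in the gene and divided by the span, which allows levels of genes of different length to be set side by side. Intervals given for tags are exact 95% Poisson intervals and cover counting error only. Where a region reaches beyond a gene, as for Tcap and Des, the interval rests on a share of the region's tags and not on tags counted in the gene. In whole organs, fewer cells of a type and less Pol II per cell cannot be told apart.

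The depth was 9880184 tags in heart, the shallowest, against 16589890.5 in kidney, 13296938 in lung and 20058183 in liver. The caller's tag thresholds came to 9.11 tags per 10000000 in heart, 7.23 in kidney, 8.27 in lung and 6.98 in liver, and each list also holds some regions below its threshold. Of 6 heart muscle genes used as a check of the labels (Myh6, Actc1, Tnnt2, Tnni3, Ryr2 and Myl2), 6 were covered over at least 50% of their span in heart and 0 in each other list. Of 4 genes each of kidney, liver and lung, 4 were covered in their own organ. Among all protein-coding genes, the shares covered over at least 50% were 16.1% in heart, 21.1% in kidney, 15.1% in lung and 21.9% in liver. The lung gene Ager was covered in all 4 lists. Another lung gene, Sftpc, was covered over 100% in lung and 74.8% in liver, with 22.9 tags per kb of span in lung and 23.7 in liver.

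The starts of transcription of 7 of the 9 genes, with 14 start windows among them, were found in a RefSeq promoter table (GRCm38.p6, the assembly behind mm10), which also gave the strand. Myom2 and Tcap have no entry in it. Shown first are 4 windows that lay wholly inside a heart region, and then the first and the last of the 4 Nebl windows, of which the first lay inside a lung region. Each runs 5′ to 3′ over 250 bases before and 50 after the start, and capitals mark matches to the motifs listed in the following paragraph, of which the first Nebl window has none.
Ttn, chr2:76982498-76982797, minus strand: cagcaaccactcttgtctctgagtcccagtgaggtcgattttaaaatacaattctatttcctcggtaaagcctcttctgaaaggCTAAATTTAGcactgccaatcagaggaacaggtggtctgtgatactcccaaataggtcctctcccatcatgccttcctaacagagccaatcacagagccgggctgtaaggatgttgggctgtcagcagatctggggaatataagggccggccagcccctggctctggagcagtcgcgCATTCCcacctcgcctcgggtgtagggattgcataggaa
Myom1, chr17:71019307-71019606, plus strand: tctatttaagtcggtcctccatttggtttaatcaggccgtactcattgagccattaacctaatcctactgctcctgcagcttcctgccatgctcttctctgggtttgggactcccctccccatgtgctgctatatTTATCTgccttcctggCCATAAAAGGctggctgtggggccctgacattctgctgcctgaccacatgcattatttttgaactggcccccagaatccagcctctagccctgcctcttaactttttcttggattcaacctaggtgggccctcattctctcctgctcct
Ldb3 first start, chr14:34588632-34588931, minus strand: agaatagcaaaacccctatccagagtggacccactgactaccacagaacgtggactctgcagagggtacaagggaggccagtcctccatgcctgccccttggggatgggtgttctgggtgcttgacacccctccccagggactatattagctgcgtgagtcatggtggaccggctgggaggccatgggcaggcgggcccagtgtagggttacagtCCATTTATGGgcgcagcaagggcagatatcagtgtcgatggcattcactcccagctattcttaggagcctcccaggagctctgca
Des, chr1:75360042-75360341, plus strand: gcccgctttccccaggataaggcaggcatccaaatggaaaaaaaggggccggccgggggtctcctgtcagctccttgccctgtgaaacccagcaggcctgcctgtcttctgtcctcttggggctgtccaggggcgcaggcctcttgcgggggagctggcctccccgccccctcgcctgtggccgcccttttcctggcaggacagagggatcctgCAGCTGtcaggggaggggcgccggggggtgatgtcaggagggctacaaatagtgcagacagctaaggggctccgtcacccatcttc
Nebl first start, chr2:17731085-17731384, minus strand: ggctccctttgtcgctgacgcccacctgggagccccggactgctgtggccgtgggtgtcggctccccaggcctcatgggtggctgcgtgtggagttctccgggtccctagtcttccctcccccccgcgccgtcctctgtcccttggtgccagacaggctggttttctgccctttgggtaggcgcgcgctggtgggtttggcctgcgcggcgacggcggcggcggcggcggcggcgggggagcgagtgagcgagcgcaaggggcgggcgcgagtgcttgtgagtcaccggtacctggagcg
Nebl last start, chr2:17462807-17463106, minus strand: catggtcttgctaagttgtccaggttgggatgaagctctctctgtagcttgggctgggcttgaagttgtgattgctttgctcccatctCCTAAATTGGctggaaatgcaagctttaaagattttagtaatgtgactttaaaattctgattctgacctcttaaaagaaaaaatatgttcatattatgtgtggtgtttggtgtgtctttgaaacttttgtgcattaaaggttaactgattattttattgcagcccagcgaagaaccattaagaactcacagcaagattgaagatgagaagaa

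The motifs were searched on both strands in all 32851 windows of the table, and no match in these genes overlapped a match of another motif. A CArG box, the sequence bound by serum response factor, was present in windows of 3 of the 7 genes (Nebl, Myom1 and Ldb3) and of 1.81% of all 27025 genes in the table. A MEF2 site was present in Ttn and Speg, 2 of 7 genes, against 3.70% of all genes. The 7 genes had 14 windows, more per gene than the table as a whole, so shares per gene are not like for like. By window, the CArG box was in 4 of 14 against 1.63% of all, and the 2 Ldb3 windows share 1 site. The MEF2 site was in 2 of 14 windows against 3.19%. Of 20 other Z-disc, M-band and I-band genes in the table, 1 had a CArG box and 5 a MEF2 site. The letters TATAAA were in 0 of 7 genes, against 15.7% of all genes. CAGCTG was present in Des and Speg (18.3% of all genes), CATTCC in Ttn, Nebl and Speg (16.6%), and AGATAA in Nebl and Myom1 (12.7%). The CArG box began 99 bases upstream of the start in Myom1, 35 in the first Ldb3 window and 162 in the last Nebl window, and the MEF2 site of Ttn began 166 bases upstream. A match describes letters in the window and not a bound site.

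In heart, Pol II regions covered 8 of the 9 genes over at least 50% of their span, against 0 in kidney, 0 in lung and 0 in liver. The background among all protein-coding genes was 16.1% in heart, 21.1% in kidney, 15.1% in lung and 21.9% in liver. Ldb3, Actn2, Des and Tcap were covered over 100%, Ttn over 97.3%, Myom1 over 94.0%, Speg over 87.4% and Myom2 over 85.2%. Nebl, the gene of the Z-disc protein nebulette, stood apart with 2.18% in heart. The median covered percent of the 9 genes was 97.3% in heart and 0% in each other list, where the medians over all protein-coding genes were 2.26% in heart, 5.07% in kidney, 3.88% in lung and 2.76% in liver.

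Ttn, Myom2, Des and Speg had no region anywhere in their span in kidney, liver or lung. Covering at least 50% of the span in heart together with no region in the other lists was found for 4 of the 9 genes and for 0.279% of all protein-coding genes. Each of the 9 genes had at least 1 heart region, 3 had a kidney region, 3 a liver region and 4 a lung region, where the background was 57.0% in heart, 61.0% in kidney, 60.3% in lung and 56.8% in liver. Outside heart the regions were in Myom1, Ldb3, Nebl, Actn2 and Tcap.

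**Figure D1:**
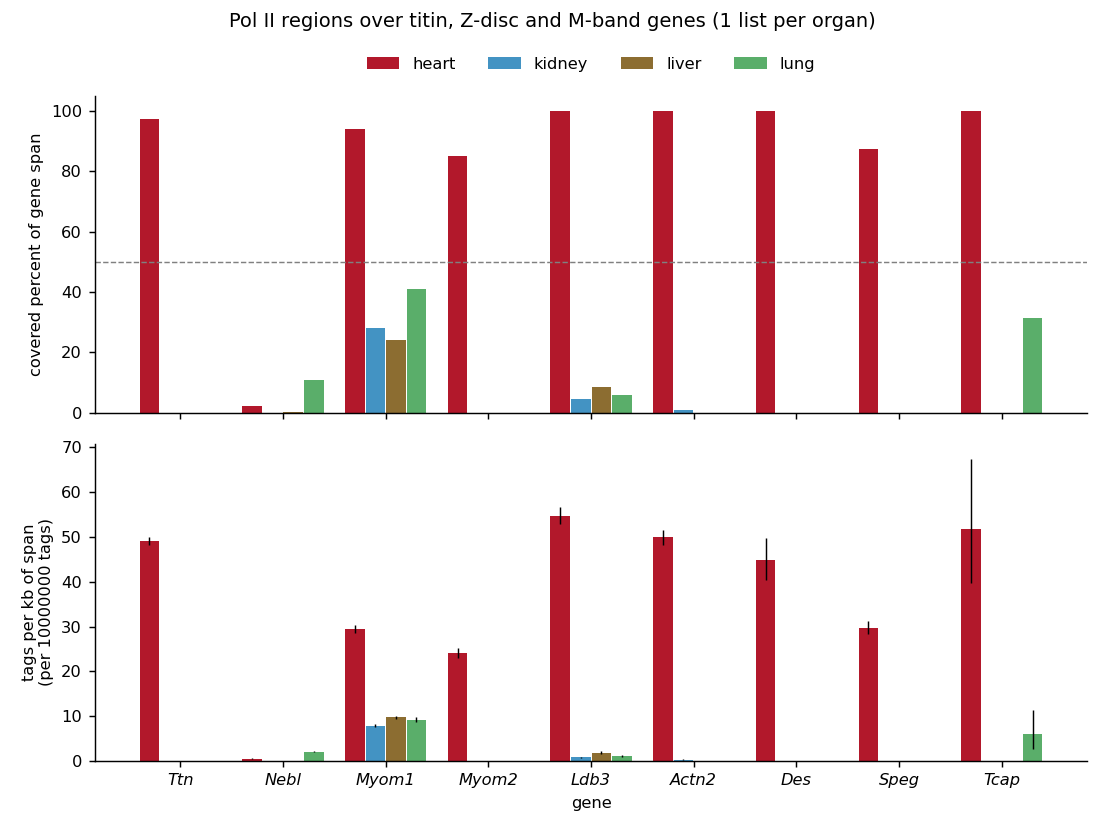
Covered percent of the gene span (upper panel, with a dashed line at 50%) and tags per kb of span, per 10000000 tags (lower panel), for the 9 genes in heart, kidney, liver and lung, 1 list each. Lines on the lower bars are exact 95% Poisson intervals, computed on shared-out tags where a region reaches beyond the gene. Heart bars stand above 85% for every gene except Nebl, whose highest bar is lung.

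By tags per kb of span in heart, Ldb3 came first with 54.8, followed by Tcap with 51.8, Actn2 with 49.9, Ttn with 49.1, Des with 44.9, Speg with 29.7, Myom1 with 29.4, Myom2 with 24.1 and Nebl with 0.48. The interval of Tcap (39.8 to 67.4) overlapped those of Ldb3 (53.0 to 56.7), Actn2 (48.3 to 51.6), Ttn and Des. The intervals of Actn2, Ttn (48.3 to 49.95) and Des (40.5 to 49.8) also overlapped, as did those of Speg (28.3 to 31.1) and Myom1 (28.5 to 30.4). The interval of Myom2 (23.0 to 25.2) overlapped that of no other gene of the 9, and that of Ldb3 overlapped the interval of Tcap alone. The median over all protein-coding genes in heart was 0.482 tags per kb, and 99.4% of them lay below Ldb3 and 92.1% below Myom2.

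Ttn encodes titin, the giant elastic protein that runs from Z-disc to M-band. The gene lies on chromosome 2 from 76703980 to 76982557, minus strand, and its 279 kb held 4 heart regions with 271 kb of covered sequence. From the 5′ end the regions ran from 76987233 down to 76961278 (26.0 kb, 2210 tags), from 76955466 to 76829309 (126 kb, 7411 tags), from 76828571 to 76753542 (75.03 kb, 2772 tags) and from 76752575 to 76700640 (51.9 kb, 1804 tags). The uncovered stretches between them were 5.81, 0.737 and 0.966 kb long, and the widest lay between the first and the second region from the 5′ end.

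The tag density of the Ttn regions was lower with each step along the gene. It was 85.1 tags per kb of region (interval 81.6 to 88.8) in the region over the start, then 58.7 (57.4 to 60.1), 36.9 (35.6 to 38.3) and 34.7 (33.1 to 36.4) in the region over the 3′ end. The intervals of the first 3 regions did not overlap, and those of the last pair did. Ttn had 60.3 tags per kb over the 5′ 50% of its span and 37.9 over the 3′ 50%. The first region began 4.68 kb upstream of the annotated 5′ end, and the last reached 3.34 kb past the annotated 3′ end. Within a region the deposited file gives a single tag count, so the profile inside a region is not resolved.

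Few genes of this length were covered in this way. Of 722 protein-coding genes of at least 250 kb, 14 (1.94%) were covered over at least 50% in heart, and the median of the 722 was 0.321%. Ttn ranked second, after Ablim1 (99.8%), an actin-binding LIM protein gene, and before Ryr2 (96.3%), the gene of the cardiac calcium release channel. Ablim1 was also covered over 52.4% in kidney, 47.6% in lung and 28.7% in liver. Of 2429 genes of at least 100 kb, 2 were covered over at least 50% in heart without a region in the other lists, namely Ttn and Ryr2.

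**Figure D2:**
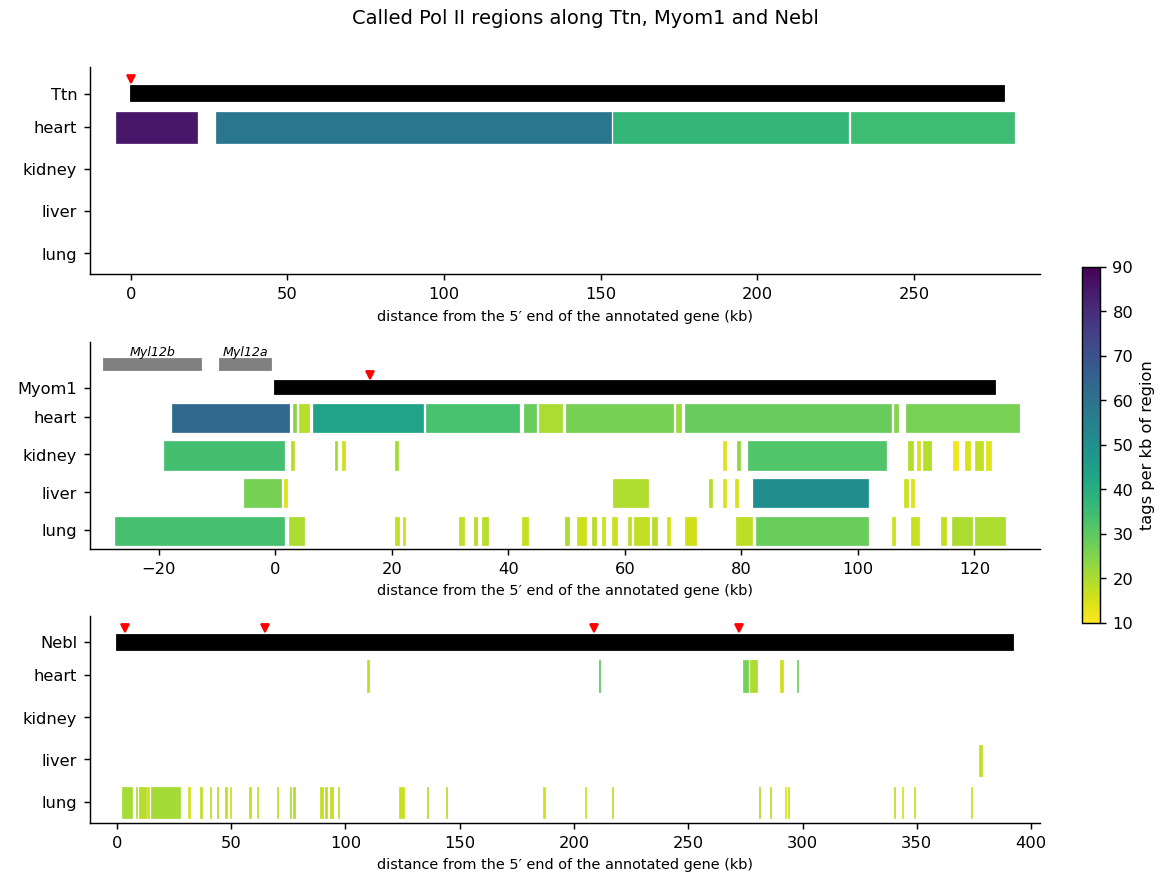
Called regions that overlap Ttn, Myom1 and Nebl in heart, kidney, liver and lung, against the distance in kb from the 5′ end of the annotated gene (black bar). Colour gives the tags per kb of each region, red triangles are listed starts of transcription, and grey bars are other protein-coding genes under the same regions. Ttn has 4 heart regions and none elsewhere, Myom1 has a block near its 3′ part in all 4 lists, and 20 of the 34 lung regions of Nebl lie in its first 30%.

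Myom1 encodes myomesin 1, the M-band protein that links myosin filaments to titin (chromosome 17, 71003332 to 71126856, plus strand, 124 kb). It was covered over 94.0% by 12 regions in heart, over 28.2% by 15 in kidney, over 41.0% by 25 in lung and over 24.1% by 9 in liver, so it was the one of the 9 genes with the most coverage outside heart. Its tags per kb of span were 29.4 in heart, 7.83 in kidney, 9.22 in lung and 9.71 in liver. The 11 uncovered stretches in heart were short, from 0.51 to 1.29 kb.

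In each list the longest covered stretch inside Myom1 lay over the same block. All 4 lists covered the stretch from 71085823 to 71105078 (19.3 kb), 82.5 to 101.7 kb from the annotated 5′ end in the liver and lung regions that bound it. The region over it had 28.5 tags per kb in heart (interval 26.8 to 30.3), 31.7 in kidney (29.96 to 33.5), 51.0 in liver (48.8 to 53.3) and 28.4 in lung (26.3 to 30.5). Here the liver density was the highest, and the heart interval overlapped those of kidney and lung. With the highest-scoring 50% of each list, Myom1 was covered over 93.6% in heart, 5.47% in kidney, 33.3% in lung and 2.08% in liver, less in kidney and in liver than the block itself. The heart region was the longest, 35.4 kb (71073630 to 71109044), against 23.7 kb in kidney (71084490 to 71108224), 19.8 kb in liver (71085284 to 71105078) and 19.3 kb in lung (71085823 to 71105121). No other annotated gene of any kind lies within the span of Myom1 in the table used.

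The listed start of Myom1, at 71019557 and 16.2 kb inside the annotated span, lay in a heart region of 18.9 kb with 43.6 tags per kb (71009775 to 71028642). It lay in no region of kidney, liver or lung, where the nearest regions were 4.26 kb away in kidney, 14.2 kb in liver and 4.278 kb in lung. At the 5′ border of the span, a region of each list ran in from Myl12a, the neighbouring gene, which encodes a regulatory light chain of non-muscle myosin. Myl12a itself was covered over 100% in heart, 100% in kidney, 100% in lung and 81.9% in liver. Counted from the listed start instead, which leaves that border out, Myom1 was covered over 94.9% in heart, 29.6% in kidney, 43.5% in lung and 26.4% in liver.

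Beyond the Myl12a border, the heart densities of Myom1 were highest near the start. They were 43.6 tags per kb (interval 40.7 to 46.7) in the region over the start and 33.2 (30.5 to 36.2) in the next long region. The 3 later regions over 15 kb had 26.8, 28.5 and 26.4 tags per kb, with overlapping intervals.

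Myom2 encodes myomesin 2, the M-protein of fast and cardiac fibres (chromosome 8, 15057653 to 15133420, 75.8 kb). In heart it held 9 regions over 85.2% of its span, and it held no region in kidney, liver or lung. The longest, at the left end by coordinate (15055726 to 15079418, 23.7 kb), had 34.5 tags per kb (interval 32.2 to 37.0), and the other 5 regions of at least 5 kb had 20.7 to 26.6. The widest uncovered stretch was 5.97 kb.

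**Figure D3:**
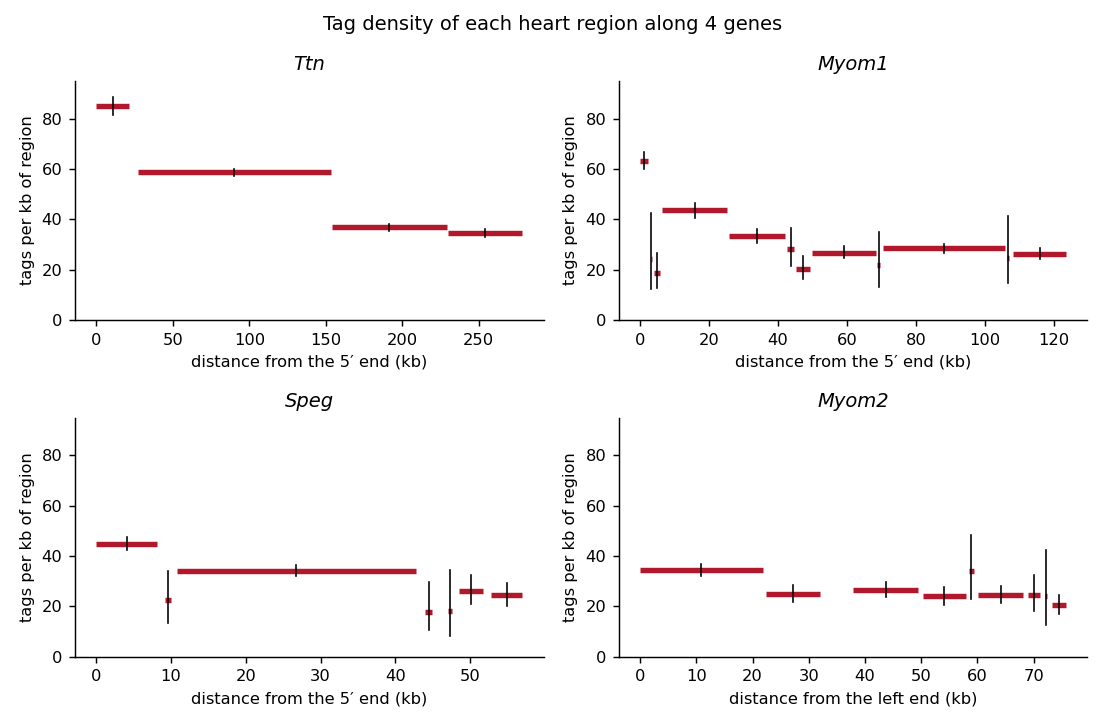
Tags per kb of each heart region (red bars, drawn over the part of the region inside the gene) against the distance in kb along Ttn, Myom1, Speg and Myom2, with exact 95% Poisson intervals as black lines. Distance is from the 5′ end, or from the left end for Myom2. In Ttn the regions step down at 85.1, 58.7, 36.9 and 34.7 tags per kb.

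Ldb3 encodes Cypher (ZASP), a PDZ and LIM domain protein that binds alpha-actinin at the Z-disc (chromosome 14, 34526699 to 34590314, minus strand, 63.6 kb). In heart 1 region of 72.9 kb (34523200 to 34596116, 3995 tags) held the whole gene, began 5.80 kb upstream of its 5′ end, inside Opn4, and ended 3.5 kb past its 3′ end. The other lists held short regions covering 4.42% of the gene in kidney (3 regions), 8.54% in liver (3 regions) and 5.95% in lung (5 regions). The tags per kb of span were 54.8 in heart, 0.771 in kidney, 1.06 in lung and 1.82 in liver. A liver region of 4.29 kb (34584830 to 34589115, 99.5 tags) covered both listed starts, which lay outside regions in kidney and lung. A stretch of 0.501 kb (34548733 to 34549233), inside the gene, was covered in all 4 lists.

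Actn2 encodes the sarcomeric alpha-actinin, the main actin crosslinker of the Z-disc (chromosome 13, 12269426 to 12340732, minus strand, 71.3 kb). In heart a single region of 80.0 kb (12260862 to 12340874) with 3995 tags held it whole and had the same deposited tag count as the region over Ldb3. The region began 0.142 kb upstream of the start and ran 8.56 kb past the 3′ end. Kidney had 1 region of 0.631 kb with 14.2 tags in the gene, and liver and lung had none. Its tags per kb of span were 49.9 in heart and 0.199 in kidney.

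Des encodes desmin, the muscle intermediate filament protein, and Speg encodes a striated muscle kinase of the myosin light chain kinase family. They lie side by side on chromosome 1, both on the plus strand, Des at 75360292 to 75368579 (8.29 kb) and Speg at 75375297 to 75432320 (57.0 kb). A heart region of 28.8 kb (75354569 to 75383380, 1294 tags) held all of Des and the first 8.08 kb of Speg, so the pair are not separate observations there. Its density was 44.9 tags per kb. Speg held 6 more heart regions, the longest of 32.0 kb (75386067 to 75418056) at 34.2 tags per kb, and the last, over the 3′ end, at 24.4. Of its 4 listed starts, 3 lay inside heart regions and the third (75385610) lay 0.267 kb from one. Neither gene had a region in kidney, liver or lung.

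Tcap encodes telethonin, the small protein that caps titin at the Z-disc (chromosome 11, 98383811 to 98384953, 1.14 kb). In heart it lay inside a region of 17.9 kb (98372216 to 98390141, 929 tags, 51.8 tags per kb) that also held Pnmt and reached into Stard3 and Pgap3, and 6.38% of that region was Tcap. Its level is therefore the mean of a region shared with 3 other genes. Pnmt, an enzyme gene of adrenaline synthesis, was covered over 100% in heart, 0% in kidney, 2.37% in lung and 0% in liver. Stard3 was covered over 71.6% in heart, 35.9% in kidney, 48.2% in lung and 5.86% in liver, and Pgap3 over 85.2% in heart, 90.2% in kidney, 54.6% in lung and 8.39% in liver. In lung a single region of 0.5 kb with 9.4 tags covered 31.3% of Tcap, and kidney and liver had no region in it. That lung region is lost, leaving 0%, when regions need at least 10 tags per 10000000 or when the 50% with the most tags are kept.

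**Figure D4:**
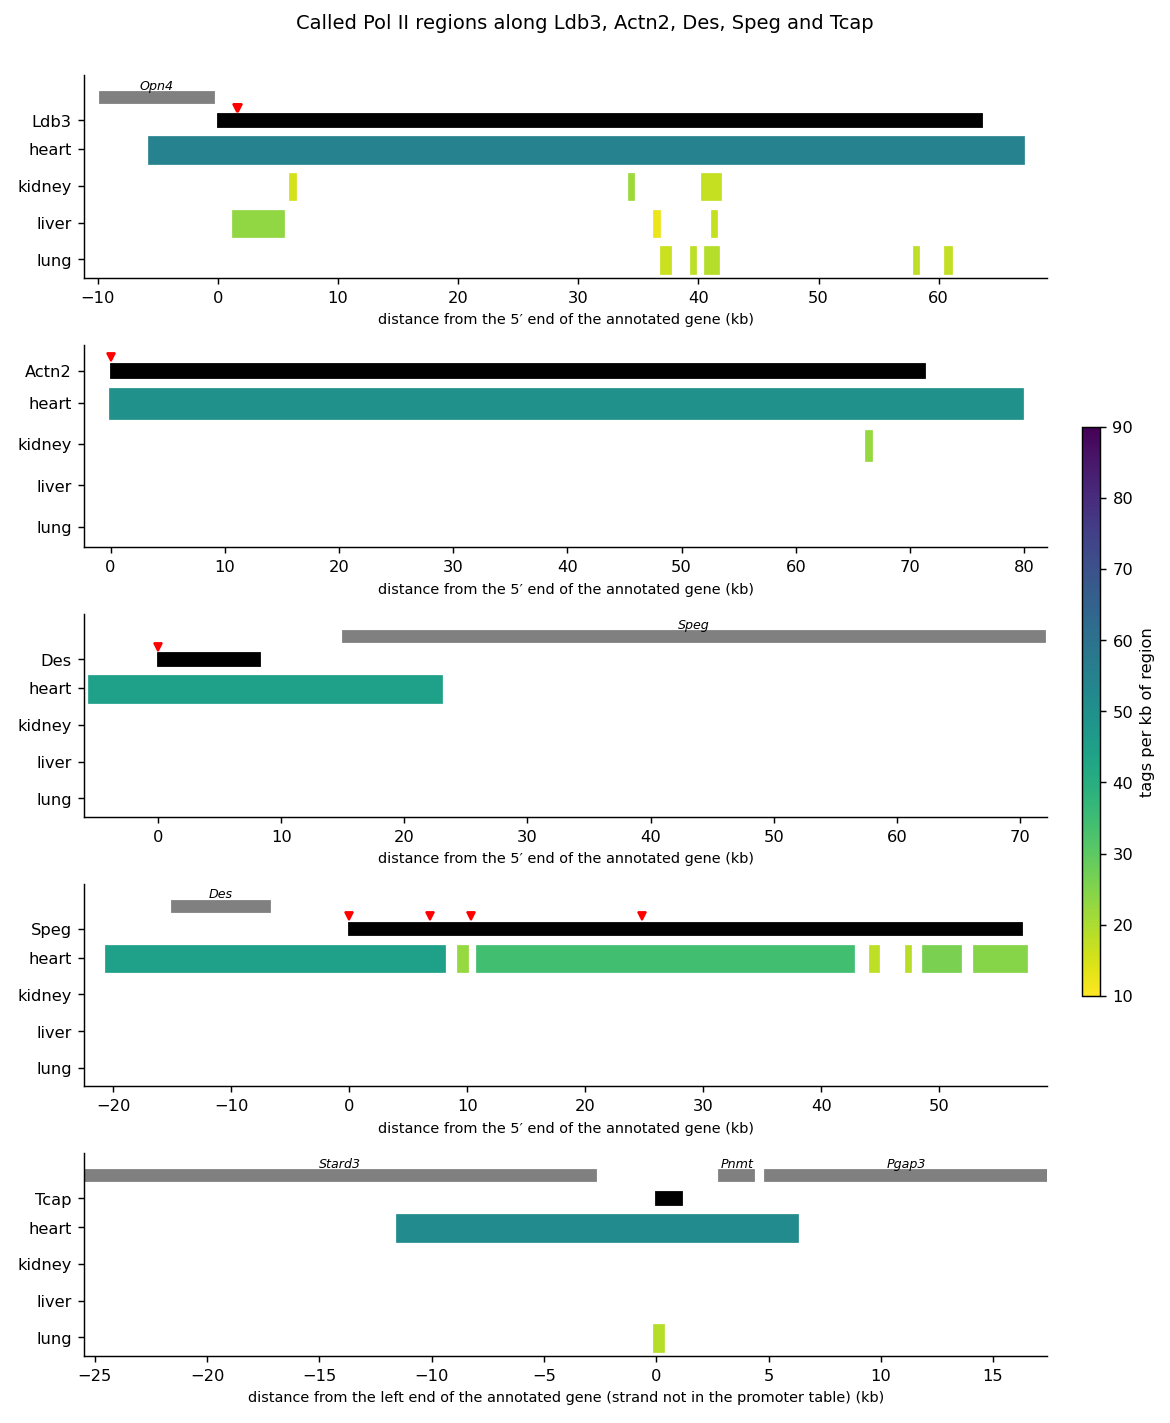
Called regions that overlap Ldb3, Actn2, Des, Speg and Tcap in the 4 lists, against the distance in kb from the 5′ end of each gene (left end for Tcap), with colours and marks as in the map of Ttn, Myom1 and Nebl. In heart each of the 5 genes is covered over at least 87.4%, and the region over Tcap is much longer than the gene.

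Nebl is the gene of nebulette, a Z-disc relative of nebulin, and of LIM-nebulette (Lasp-2), a shorter product with its own first exons that is also made outside muscle. The gene spans 392 kb (chromosome 2, 17342673 to 17734949, minus strand) and was the only one of the 9 with less coverage of the annotated span in heart than in another list. It was covered over 2.18% in heart (6 regions), 0% in kidney, 0.259% in liver (1 region) and 10.8% in lung (34 regions). The tags per kb of span were 0.48 in heart (interval 0.413 to 0.554), 0.0456 in liver (0.032 to 0.0633) and 2.04 in lung (1.92 to 2.17). Counted from the last listed start to the 3′ end, the order was the other way, with 5.93% covered in heart and 3.46% in lung. With the highest-scoring 50% of each list, 1.69% of the span was covered in heart and 2.04% in lung.

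In lung, 7 of the 34 regions lay in the first 10% of the gene, which was covered over 58.8%, and 20 lay in the first 30%. A lung region of 4.50 kb (17728200 to 17732697) held the first listed start, at 17731134, and a region of 12.5 kb (17707450 to 17719957, 259 tags) followed downstream. The other 3 listed starts lay in no lung region. In heart none of the 4 starts lay in a region. The heart regions with the most tags, 59.2 each, were a pair at 17458942 to 17461166 and 17454944 to 17457915, the nearer of them 1.69 kb downstream of the last start (17462856). A further heart region (17523493 to 17524118) lay 2.01 kb downstream of the third start (17526130).

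Regions within Nebl were sparse in both organs. Their densities were 15.6 to 30.7 tags per kb in heart and 14.3 to 20.7 in lung, where the medians of all regions were 20.9 in the heart list and 17.6 in the lung list. In the lung list 16 of the 34 regions had the minimum length of 500 bp. The windows of the first and the last start differed in base composition, with 72.0% and 37.7% G and C.

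The other genes of the Z-disc, M-band and I-band were also covered most often in heart, with more exceptions. Of 25 such genes, 16 were covered over at least 50% in heart, against 5 in kidney, 2 in lung and 5 in liver. The shares over all protein-coding genes were 16.1% in heart, 21.1% in kidney, 15.1% in lung and 21.9% in liver. The kidney and liver counts are therefore near the share of all genes. Their median covered percent was 93.1% in heart, 0.715% in kidney, 1.74% in lung and 1.51% in liver. Among the genes covered over 100% in heart were Myoz2, which encodes a calcineurin-binding Z-disc protein, Bag3, a co-chaperone gene, Csrp3, the gene of muscle LIM protein, Trim63, a muscle ubiquitin ligase gene, Cryab, the small heat shock protein gene, and Xirp1. Pdlim3 (8.01%) and Xirp2 (5.14%) were at the low end in heart. Bag3 was the gene of this list with at least 50% in all 4 lists. Cryab was also covered over 100% in kidney, 100% in lung and 32.0% in liver. Its kidney and lung regions also overlapped Dixdc1, 2310030G06Rik and Hspb2. Nexn was covered over 98.3% in heart, 65.7% in kidney, 48.3% in lung and 54.6% in liver. Its only liver region (64.8 kb) and its longest kidney region (51.7 kb) also overlapped Dnajb4 and Fubp1. A group of 6 genes had heart regions and none elsewhere, namely Flnc, Ankrd1, Xirp2, Smpx, Obsl1 and Trim54. The share of all protein-coding genes with this pattern was not computed. With at least 50% covered in heart as well, 2 of the 25 remained (Ankrd1 and Trim54), against 0.279% of all protein-coding genes. Flnc (49.4%), Obsl1 (49.3%), Smpx (13.9%) and Xirp2 were below 50% in heart.

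Of 8 genes of the desmosome and of desmin anchoring, 5 were covered in heart, 1 in kidney, 3 in lung and 2 in liver. Among all protein-coding genes, 16.1% were covered in heart, 21.1% in kidney, 15.1% in lung and 21.9% in liver. Jup, the plakoglobin gene, was covered over 100% in heart, 89.5% in kidney, 93.0% in lung and 46.0% in liver. Pkp2 (90.9%), Dsp (76.4%), Plec (74.7%) and Vcl (69.9%) followed in heart, and Synm was at 10.1%. Vcl was higher in liver (75.2%) than in heart, with 67.1% in lung and 46.7% in kidney. Plec was covered over 65.6% in liver, 54.9% in lung and 40.4% in kidney. Synm was higher in lung (26.7%) than in heart and had no region in kidney or liver. Of the 8 genes, Dsp and Pkp2 alone were called covered in heart and in no other list. Outside heart both were highest in liver, Dsp with 18.5% and Pkp2 with 15.7%. The longest genes of the list, Dmd with 2390 kb and Ctnna3 with 1574 kb, were covered over 1.89% and 0.918% in heart.

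Of 18 paralogs of the 9 genes, 7 were covered in heart, 3 in kidney, 5 in lung and 5 in liver. The background among all protein-coding genes was again 16.1% in heart, 21.1% in kidney, 15.1% in lung and 21.9% in liver. Of the alpha-actinin genes, Actn4 was covered over 93.9% in heart, 95.5% in kidney, 76.9% in lung and 82.0% in liver. Actn1 was covered over 21.5% in heart, 22.7% in kidney, 65.7% in lung and 30.3% in liver, and Actn3, of fast skeletal fibres, over 0% in heart and 3.0% in kidney. In the nebulin family, Lasp1 was covered over 88.8% in heart, 93.9% in kidney, 89.2% in lung and 96.8% in liver, Nrap over 79.7% in heart and at most 10.6% elsewhere, and Neb, the skeletal nebulin gene, over 0.623% in heart. Myom3 was covered over 35.1% in heart, 18.2% in kidney, 11.8% in lung and 14.5% in liver.

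Among the kinase relatives of titin and Speg, Mylk3, the cardiac myosin light chain kinase gene, was covered over 88.2% in heart and at most 13.8% elsewhere. Mylk, the smooth muscle kinase gene, was covered over 14.8% in heart and was highest in liver with 61.4%. Vim, the intermediate filament gene of mesenchymal cells, was covered over 48.9% in heart and 100% in lung, while Des had 100% in heart and no lung region. Of the PDZ and LIM genes related to Ldb3, Pdlim5 was covered over 72.0% in heart and 52.3% in liver, Pdlim1 over 40.1% in heart and 78.6% in liver, and Pdlim2 over 59.1% in heart, 58.8% in kidney and 100% in lung.

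**Figure D5:**
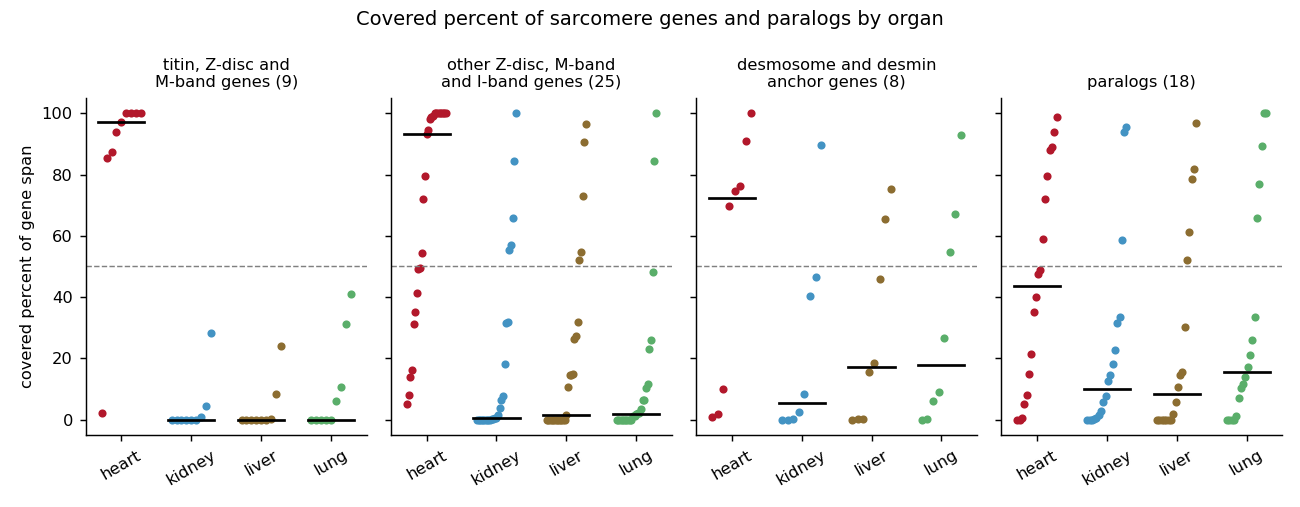
Covered percent of the gene span in heart, kidney, liver and lung for the 9 genes, 25 other Z-disc, M-band and I-band genes, 8 desmosome and desmin anchor genes and 18 paralogs. Each point is a gene, black lines are medians and the dashed line is at 50%. In heart 8 of 9, 16 of 25, 5 of 8 and 7 of 18 genes lie above the dashed line, against 16.1% of all protein-coding genes.

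The genes whose covered percents over the 4 lists came nearest to the median profile of the 9 (97.3% in heart and 0% elsewhere) were 1110002E22Rik, Ryr2, Myocd, Ckmt2 and Eef1a2. Likeness was the sum of absolute differences over the 4 organs, and it ran from 0.361 percentage points for 1110002E22Rik to 1.43 for Eef1a2. Myocd encodes the cardiac and smooth muscle coactivator myocardin, and Ckmt2 encodes sarcomeric mitochondrial creatine kinase. Of the 9 genes themselves, 4 lay within 10 points of the profile, and the count of genes within 10 points was 54. The median profile equals the values of Ttn, so its distance of 0 was fixed in advance.

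Markers of other muscle types were set beside these values. Of 8 skeletal muscle genes, Myh1, Myh2, Myh4 and Myod1 had no heart region, Ckm was covered over 100% in heart, and Mylpf was covered over 48.4% in heart, 100% in kidney, 55.9% in lung and 75.5% in liver. The summed tags per kb of the 8 were 55.0 in heart, 22.5 in kidney, 11.8 in lung and 14.4 in liver. Ckm gave the largest part in heart, 35.1, with 0.776 in kidney, 0.936 in lung and 0 in liver. Mylpf gave 14.8 in heart, 21.7 in kidney, 10.9 in lung and 14.4 in liver. Of 6 smooth muscle genes, 1 was covered over at least 50% in heart, 2 in kidney, 0 in lung and 1 in liver. The shares of all protein-coding genes were 16.1% in heart, 21.1% in kidney, 15.1% in lung and 21.9% in liver. Summed tags per kb of the 6 smooth muscle genes were 44.0 in heart, 48.5 in kidney, 11.1 in lung and 29.2 in liver. To those sums Smtn gave 31.1 in heart, 28.6 in kidney, 3.57 in lung and 0.611 in liver. Tagln gave 10.8 in heart, 19.4 in kidney, 5.15 in lung and 28.1 in liver. Acta2, Myh11 and Cnn1 each had at most 1.19 in any list. Of 4 genes of atrial and pulmonary vein muscle, none was covered over at least 50% in any list, Sln had no region in any, and the sums were 1.35 in heart, 7.10 in kidney, 4.25 in lung and 5.85 in liver. In kidney Nppa gave 5.79 of the sum through 1 region, in liver Myl7 gave 3.68, and in heart and lung Myl4 gave the whole sum. The 6 heart muscle genes had no region in lung, where Nebl, Myom1, Ldb3 and Tcap had regions. The part of these cell types in the values of the 9 genes was not tested.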

How the data were processed

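Pol II ChIP-seq region lists were used, 1 from each of the 4 organs. Per the submitters' processing notes, the tools were Bowtie2 2.2.8 and HOMER 4.8, and the build was mm10. The caller was findPeaks in histone style with 500 bp windows and a Poisson p threshold of 0.001, and no control library stands in the recorded command, per the file headers. The signal deposited by the authors is a tag count per region scaled to 10000000 tags. The deposited score is the caller's own and was used within a list, the deposited ratio (clonal fold change) was not used, and other deposited columns give lengths. Neither the treatment of tags matching several places nor the pooling of both mice is stated in the material at hand, and paralogs and repeats are uncertain.

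Gene spans came from a RefSeq table of GRCm38.p6, from which 21887 protein-coding genes of the autosomes, X and Y were kept. All listed symbols matched. A region counted for a gene from 1 bp of overlap. A gene was called covered at 50% of its span. The 9 genes, the gene lists and this threshold were chosen with earlier results of these data known. The text names the 9 genes, genes sharing their regions, paralogs covered in an organ, up to 6 members of each other list with the highest covered percent in heart and those under 10%, and the 5 genes of nearest profile. Others named were chosen after their values were seen. Some of the genes that this rule holds are not reported here. Overlap code was tested on simulated regions. Values were computed with Python 3.11.15, numpy 2.4.6, pandas 2.3.3 and scipy 1.17.1. With 1 list per organ, no test was run. Poisson intervals treat each tag as independent, which tags of a read pair would not be.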

Additional observations from a re-analysis of the deposited data

How the results depend on the processing

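Of the 9 genes, 8 were covered in heart, and the count was 6 to 8 under 10 other settings. It was 6 at 90% of span, and 6 with the 50% of each list with the highest scores, where Tcap (0%) and Myom2 (43.2%) dropped below 50% in heart. Of the recomputed covered percents of single genes, those 2 crossed 50% and 250 did not, although some moved far below it (Myom1 in kidney and liver, Nebl and Tcap in lung). In kidney, liver and lung the count was 0, except for 1 in kidney and 2 in lung at 25% of span, where Tcap in lung rests on 1 region that is also lost with equal numbers of regions per list. Counting the tags of a region where its midpoint lies leaves Des and Tcap at 0 tags per kb in heart, because the midpoints of their regions lie outside them. Divided by covered length instead of span, Nebl had 22.0 tags per kb in heart, 17.6 in liver and 18.8 in lung, with heart above lung. The median of all regions was also higher in the heart list (20.9) than in the lung list (17.6), as was the caller's threshold (9.11 against 8.27). This order is therefore not particular to Nebl. Division by covered length gave Myom1 31.3 in heart, 27.8 in kidney, 22.5 in lung and 40.3 in liver, which puts liver above heart.

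For the 25 other Z-disc, M-band and I-band genes, the heart count of 16 was 10 with the highest-scoring 50% of regions. The kidney count of 5 was 2 at 75% and 1 at 90% of span, 2 with the highest-scoring and 3 with the most-tagged 50%. The liver count of 5 was 8 at 25%, 2 at 75% and 2 at 90%. The lung count of 2 was 4 at 25%, 1 at 90% and 1 with the highest-scoring 50%. The span counted from the last listed start was added after seeing the data. Heart had the fewest tags, so a gene without a region in another list was not called at a greater depth. Signal below the calling level is not seen in a list, so 0% does not show that polymerase was absent. No paired analysis was possible because each organ has 1 list.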

Other observations

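Some sarcomere genes were covered in an organ other than heart, although the 9 genes described above were not. Csrp3, which encodes muscle LIM protein, was covered over 100% in heart and 96.5% in liver, with 43.9 tags per kb of span in heart and 37.3 in liver, and it had no region in kidney or lung. Its liver regions were 14.2 kb (chromosome 7, 48818630 to 48832821) and 63.3 kb long (48833441 to 48896783) and also overlapped Zdhhc13 and E2f8. Xirp1, which encodes an actin-binding protein of the intercalated disc, was covered over 100% in heart and 90.7% in liver, with 43.5 tags per kb in heart and 21.8 in liver, by liver regions that overlapped no other protein-coding gene. Synpo2l was covered over 84.3% in kidney, in part by a 24.8 kb region that reaches into Sec24c, and Trim63 over 56.9% in kidney. These genes were picked after their values were seen, each value rests on 1 list, and no difference was tested.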
